A study of Mus musculus with 2 samples.

Results

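The high-affinity IgE receptor of mast cells and the signalling proteins next to it were described through 9 genes, picked by symbol from the 32285 genes of the matrix. They are the receptor chains Fcer1a (alpha), Ms4a2 (beta) and Fcer1g (gamma), the kinases Lyn, Syk and Btk, the adaptors Lat and Lat2, and the phospholipase Plcg1. All 9 were found, and each had at least 10 CPM (counts of unique molecules per 1000000) in some cell class. Per the labels, 2 C57BL/6J males, 12 weeks old, gave the aortic cells. These were plated in methylcellulose, a gel in which the offspring of 1 cell stay together as a colony, and colonies were picked after 14 days. Macrophage colonies (CFU-M) were dispersed, live cells were sorted by DAPI exclusion, and suspensions were tagged with lipid-anchored oligonucleotides (MULTI-seq) and pooled into 1 droplet library. The tag library listed as a second sample was not used here, and the tag values below come from 3 tag features counted in the gene expression matrix itself. No second group, treatment or replicate library was analysed here, so the comparisons are between cell classes within 1 library, without a test, and every interval below covers counting error only.

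The alpha chain binds the constant part of IgE, and the beta and gamma chains carry the tyrosine motifs (ITAMs) that pass the signal on. When antigen draws receptors together, Lyn phosphorylates these motifs and Syk docks on them and becomes active. Syk then phosphorylates the adaptors Lat and Lat2, which gather Plcg1 and other enzymes, and Btk helps to activate phospholipase C, whose products release calcium and set off degranulation. In the mouse the alpha chain is largely restricted to mast cells and basophils. The gamma chain is shared with activating Fc gamma receptors and other myeloid receptors, and Lyn, Syk and Btk also serve many receptors of macrophages and B cells.

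The cells were grouped by clustering that left out all 9 genes, and classes were named from marker lists that hold none of them. The mast cell-like class had 19212 of 28563 cells (67.3%, 95% interval 66.7–67.8), the fibroblast-like class 4996 (17.5%) and the macrophage-like class 2411 (8.44%). The labels call the sample macrophage progenitors, but 7 macrophage markers summed to 47.0 CPM in mast cell-like cells, against 55779 CPM for 6 mast cell markers. Since classes were named from these lists, a high level of a list in its own class is no separate check of the name. Macrophage markers were at 10337 CPM in the macrophage-like class and fibroblast markers at 12109 CPM in the fibroblast-like class. These 2 classes also held mast cell markers, at 15289 CPM and 7039.7 CPM. In macrophage-like cells the erythroid list summed to 822 CPM and the neutrophil list to 435 CPM. The megakaryocyte list summed to 2625 CPM there, of which Pf4 alone made up 2571 CPM, while Itga2b was at 51.5 CPM, against 136 CPM in mast cell-like cells, and Gp9 and Gp1bb were under 1 CPM. The basophil list, whose cells also carry the IgE receptor, summed to 584 CPM in mast cell-like cells, of which Cd200r3 alone made up 482 CPM. Its defining proteases Mcpt8 and Prss34 were at 11.7 and 37.6 CPM there, Il3ra at 45.4 CPM and Itga2 at 6.51 CPM. Xist, which male cells normally lack, was at 389.9 CPM in the largest class and at 352 and 713 CPM in the macrophage-like and fibroblast-like classes, which goes against the label of male mice. As described below, the tag carried alone most often was a different one in each class, so a difference between classes and a difference between tagged suspensions cannot be told apart.

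Every class therefore contained some mast cell transcripts, and each gene was read against that level. The ratio of CPM in a class to CPM in mast cell-like cells was computed for the 6 mast cell markers Cma1, Cpa3, Mcpt4, Tpsb2, Tpsab1 and Hdc. It ran from 0.241 to 0.311 in macrophage-like cells and from 0.117 to 0.156 in fibroblast-like cells. A gene inside this range was no higher, relative to mast cell-like cells, than mast cell proteases are. A second list of 5 mast cell genes (Slc18a2, Cyp11a1, Mrgprb1, Gata2 and Il1rl1) ran from 0.295 to 0.346 and from 0.128 to 0.142. The source of these mast cell transcripts was not tested.

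Promoter sequences are shown for the receptor chains because the 2 chains that followed the mast cell markers and the chain that did not can be set side by side, and for Syk as the gene with the highest ratio in macrophage-like cells. They run from 250 bases before to 50 bases after the start site in RefSeq on GRCm38.p6, and 7 of the 9 genes had an entry. Capitals mark matches, on either strand, to short words known from 2 kinds of factor. The first kind is the GATA factors, which act in mast cells, with the words AGATAA or its variant AGATAG and likewise TGATAA or its variant TGATAG. The second is PU.1, an ETS factor of myeloid cells, with the word GAGGAA. None of these matches overlap in the promoters shown. The E-box words CATGTG and also CAGCTG were searched too and are left in lower case. The Fcer1a promoter lies at chr1:173227180-173227479, Ms4a2 at chr19:11623670-11623969 and Fcer1g at chr1:171234300-171234599, all 3 on the minus strand. The second listed Syk promoter lies at chr13:52596632-52596931 on the plus strand.
Fcer1a: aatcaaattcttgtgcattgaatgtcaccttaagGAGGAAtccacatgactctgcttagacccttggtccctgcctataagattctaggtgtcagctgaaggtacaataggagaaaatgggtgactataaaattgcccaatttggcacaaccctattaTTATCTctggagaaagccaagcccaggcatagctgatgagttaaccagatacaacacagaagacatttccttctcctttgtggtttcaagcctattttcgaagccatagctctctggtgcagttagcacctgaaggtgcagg
Ms4a2: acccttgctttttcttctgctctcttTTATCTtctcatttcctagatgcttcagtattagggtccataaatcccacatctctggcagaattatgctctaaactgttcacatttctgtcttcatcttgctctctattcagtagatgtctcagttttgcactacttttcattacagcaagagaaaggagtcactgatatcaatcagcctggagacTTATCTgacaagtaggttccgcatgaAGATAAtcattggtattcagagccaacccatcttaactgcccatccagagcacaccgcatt
Fcer1g: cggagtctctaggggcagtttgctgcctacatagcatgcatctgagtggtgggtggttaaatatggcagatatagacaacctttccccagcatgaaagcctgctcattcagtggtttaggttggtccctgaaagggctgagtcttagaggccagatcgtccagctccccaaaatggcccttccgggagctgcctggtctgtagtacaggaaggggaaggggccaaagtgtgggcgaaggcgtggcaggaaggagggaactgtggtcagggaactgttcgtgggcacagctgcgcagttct
Syk: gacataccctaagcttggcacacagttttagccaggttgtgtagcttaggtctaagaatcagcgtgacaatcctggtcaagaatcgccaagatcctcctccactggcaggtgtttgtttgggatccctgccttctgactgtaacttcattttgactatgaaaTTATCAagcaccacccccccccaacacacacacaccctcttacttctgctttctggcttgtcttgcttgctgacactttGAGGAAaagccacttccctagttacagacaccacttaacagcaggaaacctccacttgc
The Ms4a2 promoter held 3 GATA words, that of Fcer1a held 1, and that of Fcer1g held 0. Fcer1a and the second Syk promoter held 1 GAGGAA each, the second Syk promoter held 1 GATA word, and Fcer1g and Ms4a2 held 0 GAGGAA. The first listed Syk promoter (chr13:52583187-52583486) held 0 of both and is not printed, since it has no match to mark. The promoters of Lat, Btk and Plcg1 are not printed either. That of Lat, a gene that followed the mast cell markers as well, held 0 GATA words and 1 GAGGAA. Btk likewise held 0 GATA words and 1 GAGGAA, and Plcg1 held 0 of both. Among all 32851 mouse promoters of this length, 29.8% held a GATA word and 28.3% held GAGGAA, so such a match is common. CATGTG was found once in Fcer1a, and CAGCTG was found once each in Fcer1a, Fcer1g and the first listed Syk promoter. Of all promoters 14.2% and 16.3% held them. A match describes the letters and does not show that a factor binds.

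Of the 3 main classes the mast cell-like class had the highest alpha and beta chain levels, and in the other 2 they stood at the level of the mast cell markers. Fcer1a (ENSMUSG00000005339, chromosome 1, 173221284–173227214, minus strand, GRCm38) stood at 3699 CPM (3692–3707) in the mast cell-like class, and at 989 CPM (976–1002) and 488 CPM (484–491) in the macrophage-like and fibroblast-like classes. For Ms4a2 (chromosome 19, 11615523–11623719, minus strand) the levels were 660.1 CPM (657–663), 180.0 CPM (175–185) and 80.2 CPM (78.8–81.6) in the same order. The macrophage-like level was 0.267 times the mast cell-like level for Fcer1a and 0.273 times for Ms4a2, both inside the marker range. These ratios moved with the choice of cells, to 0.120 and 0.116 in cells with 1 tag alone and to 0.440 and 0.495 with called doublets kept. The marker range moved too, to 0.108–0.146 and 0.361–0.496, and both chains lay inside it each time. In fibroblast-like cells, which are not known to carry the receptor, the ratios of 0.132 and 0.122 were inside the range too. The 2 chains also kept a near-constant proportion to each other, with 5.60, 5.50 and 6.08 Fcer1a molecules per Ms4a2 molecule, again in that order. Molecules were counted at the 3′ end and not scaled by length, and capture may differ between genes.

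The gamma chain departed from them in macrophage-like cells and not in fibroblast-like cells. Fcer1g (chromosome 1, 171229572–171234365, minus strand) reached 3578 CPM (3571–3586), 2259 CPM (2239–2278) and 479 CPM (475–482) in the 3 classes, in the order above. Its macrophage-like ratio of 0.631 (0.626–0.637) lay above the highest marker ratio, whereas its fibroblast-like ratio of 0.134 lay among the markers. At the highest marker ratio, 1112 CPM of Fcer1g would accompany the mast cell transcripts in macrophage-like cells, and 1146 CPM lay above that. Alpha and gamma molecules were near equal in number in mast cell-like cells (1.03 alpha per gamma) and in fibroblast-like cells (1.02), but not in macrophage-like cells (0.438).

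Lyn and Syk, the kinases that start the signal, were higher in macrophage-like than in mast cell-like cells. From the mast cell-like to the macrophage-like and the fibroblast-like class, Lyn (chromosome 4, 3678115–3813122, plus strand) stood at 247 CPM (245–249), 681 CPM (671–692) and 61.2 CPM (60.0–62.5). Syk (chromosome 13, 52583173–52648792, plus strand) stood at 45.2 CPM (44.4–46.1), 366 CPM (358–374) and 10.6 CPM (10.1–11.1). Macrophage-like cells thus had 2.75 times the Lyn level (2.71–2.80) and 8.09 times the Syk level (7.87–8.32) of mast cell-like cells. Both also exceeded the marker range in fibroblast-like cells, at ratios of 0.248 for Lyn and 0.234 for Syk. Lyn outnumbered Syk 5.47 to 1 in mast cell-like cells and 1.86 to 1 in macrophage-like cells.

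Btk, a Tec-family kinase, was highest in mast cell-like cells and exceeded the marker range in macrophage-like cells alone. Its 3 levels (chromosome X, 134542336–134583570, minus strand) were 302 CPM (299–304), 123 CPM (118–127) and 35.0 CPM (34.1–35.9). Its macrophage-like ratio was 0.406 (0.392–0.422). In fibroblast-like cells the ratio of 0.116 (0.113–0.119) fell just under the lowest marker ratio, and the interval reached into the range.

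The adaptor Lat followed the mast cell markers, and Lat2 lay at the upper edge of their range. In the same class order, Lat (chromosome 7, 126363824–126369570, minus strand) stood at 136 CPM (135–137), 41.0 CPM (38.4–43.6) and 19.3 CPM. Lat2 (chromosome 5, 134600022–134615025, minus strand), also called NTAL, stood at 647 CPM (643–649.6), 199.8 CPM (194–206) and 87.7 CPM (86.2–89.2). Their macrophage-like ratios of 0.301 and 0.309 lay inside the marker range near its upper end, and both intervals reached past it, to 0.321 and 0.318. Lat2 lay above the range with called doublets kept (0.497, highest marker 0.496), in cells with 1 tag alone (0.166, highest marker 0.146) and with mean CPM per cell (0.228, highest marker 0.221). Lat2 overlaps Rfc2 on the other strand, and the use of strand in counting is not stated, so reads of the 2 genes may not be separated.

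Plcg1, the phospholipase, differed least between classes, and it was the 1 gene of the 9 with a higher level in fibroblast-like than in macrophage-like cells. Its levels (chromosome 2, 160731300–160775760, plus strand) were 65.7 CPM, 23.3 CPM (21.4–25.4) and 28.3 CPM (27.5–29.2). Its ratios of 0.355 (0.326–0.387) and 0.431 (0.417–0.446) were above the marker range in both classes. In macrophage-like cells, however, the interval took in the 0.346 of Slc18a2, the highest of the second list, 4 of whose 5 genes were above the marker range as well. Plcg1 overlaps Gm27206 and Zhx3 on the other strand, with the same limit.

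**Figure D1:**
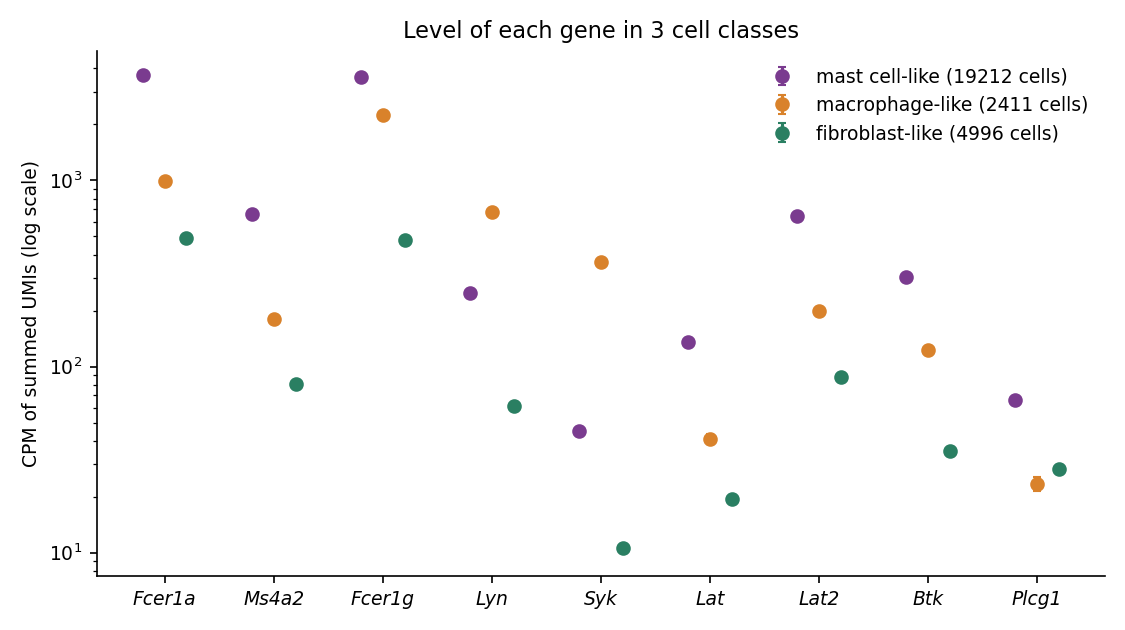
CPM of summed counts on a log axis for the 9 genes, 1 point for each of the 3 cell classes with the 95% Poisson interval. Lyn and Syk are the genes whose macrophage-like point is the highest, and Plcg1 is the gene whose fibroblast-like point lies above the macrophage-like one.

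Against the marker range, the genes split into 5 above it in macrophage-like cells (Fcer1g, Lyn, Syk, Btk and Plcg1) and 4 inside it (Fcer1a, Ms4a2, Lat and Lat2). Of all 8836 genes with 10 CPM or more in either class, 95.9% were above the range and 4.13% were in or below it. In fibroblast-like cells 3 were above (Lyn, Syk and Plcg1) and 6 were in or below the range, against 95.9% and 4.07% of 9476 genes. Lying above the range was thus the usual state of a gene. The median log2 ratio over the 9 genes was -1.49 in macrophage-like cells, where that of all genes was -0.22, and -2.88 in fibroblast-like cells, where that of all genes was -0.03.

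With a threshold of 4 times, 0 of the 9 genes were higher in mast cell-like than in macrophage-like cells, against 1.27% of all genes, and 1 (Syk) was higher in macrophage-like cells, against 11.9%. Lyn and Syk were the 2 with any higher level in the macrophage-like class, as 40.7% of all genes were. The 4-fold threshold lies within what mast cell markers themselves reached, since Cma1 was 3.59 times and Mcpt4 4.14 times higher in mast cell-like cells. At 3 times, a threshold added after the values were seen, the genes were Fcer1a, Ms4a2, Lat and Lat2, against 5.21% of all genes. Among cells with 1 tag alone, where macrophage-like cells held fewer mast cell transcripts, 5 genes passed 4 times, namely these 4 and Plcg1, against 6.73% of all genes in the same cells. Against fibroblast-like cells 8 of 9 were 4 times or more higher in mast cell-like cells, with Plcg1 as the exception, where 6.98% of all genes were. At 3 times the same 8 passed, where 9.22% of all genes did, and 0 of the 9 were 4 times or more higher in fibroblast-like cells, where 15.7% of all genes were.

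**Figure D2:**
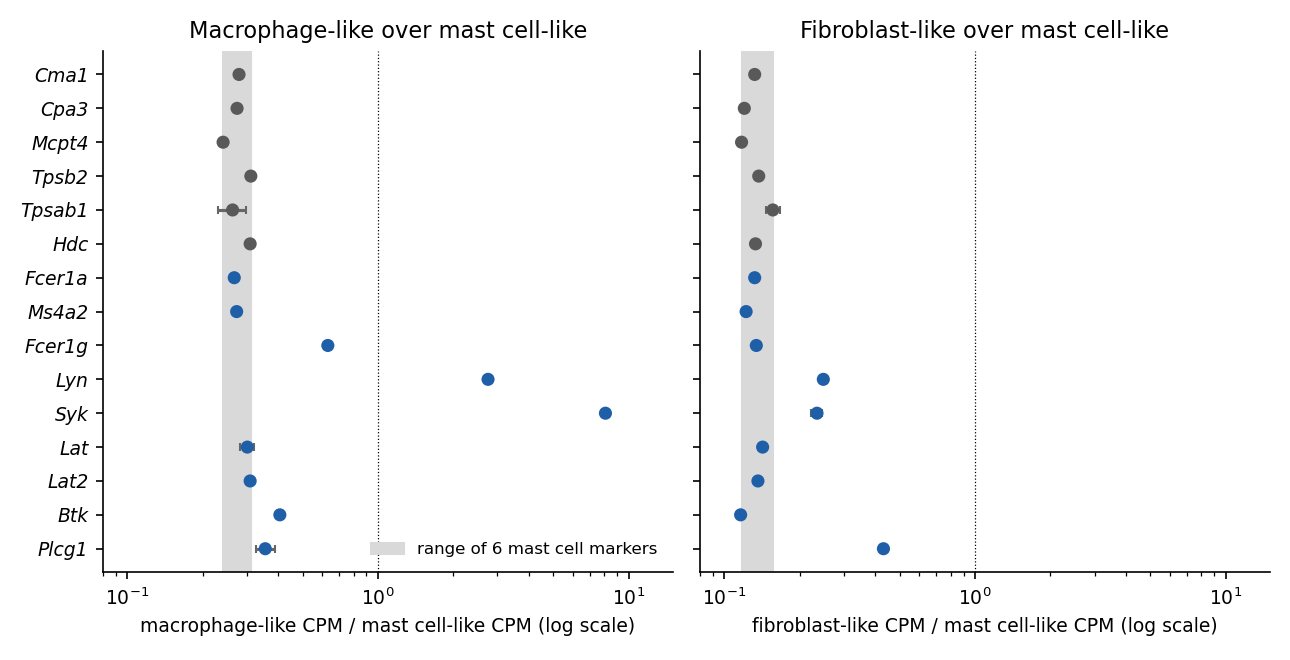
Ratio of CPM in macrophage-like (left) and fibroblast-like cells (right) to CPM in mast cell-like cells, on a log axis, with 95% intervals. The grey band is the range of 6 mast cell markers, 0.241 to 0.311 and 0.117 to 0.156, and the dotted line marks equal CPM.

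Mast cell load was not even among the cells of a class, which gave a second view of the same genes. Macrophage-like cells were ranked by CPM of the 6 mast cell markers and cut into 5 bins of 482 or 483 cells, whose marker level ran from 1606 to 39161 CPM. In the first bin 5 mast cell genes that were not used for ranking, those of the second list, stood at 0.0444 of their mast cell-like level. Fcer1a at 0.0414 of its mast cell-like level (153 CPM), Ms4a2 at 0.0341 (22.5 CPM) and Lat at 0.0511 (6.94 CPM) were close to them. In the last bin Fcer1a, Ms4a2 and Lat were 15.5, 18.8 and 13.2 times as high as in the first. Across the first 3 bins Fcer1a rose with the mast cell load (153, 202 and 233 CPM), and Ms4a2 stood at 22.5, 38.8 and 39.5 CPM. Lat stood at 6.94, 7.08 and 9.34 CPM there, from 37, 29 and 31 molecules. The intervals of Lat overlapped, so no change among these 3 bins is resolved for it.

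The other 6 genes kept more than that in the cells with the least mast cell RNA. The share of all genes that did so in this bin is not given here. Over the whole class 95.9% of genes lay above the marker range, so this may be usual. Fcer1g was at 1727 CPM (1692–1763), or 0.483 of its mast cell-like level, in the first bin and at 3086 CPM in the last. Lyn was at 816 CPM in the first bin and 479 CPM in the last, and Syk at 483 and 207 CPM, opposite to the markers. Btk was at 69.4 CPM (62.5–76.9), which is 0.230 of its mast cell-like level. Plcg1 was at 7.13 CPM (0.108) from 38 molecules, with an interval of 5.04–9.78 CPM. Lat2, which lay inside the marker range over the whole class, was at 58.9 CPM (52.6–65.8) or 0.0911, about the same in the first 3 bins (58.9, 57.4 and 61.2 CPM), and at 435 CPM in the last. The median depth per cell also differed between bins, from 4972 UMIs in the fourth to 13173 in the fifth, and its part in these values was not tested.

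Among fibroblast-like cells the gamma chain behaved like the alpha and beta chains. The first of 5 bins, of 999 or 1000 cells each, had 934 CPM of mast cell markers and the last had 21773 CPM. Fcer1g was at 85.2 CPM (0.0238 of its mast cell-like level) in the first bin and 1379 CPM in the last, and Fcer1a was at 86.0 CPM (0.0233) and 1416 CPM. The 5 unused mast cell genes were at 0.0232, so neither chain stood apart from them. Btk was lower still, at 4.12 CPM (0.0137) in the first bin. Lyn at 37.3 CPM (0.151), Syk at 7.37 CPM (0.163) and Plcg1 at 22.2 CPM (0.337) differed less across bins, by 2.87, 2.39 and 1.74 times between the first and the last, where the markers differed 23.3 times. Fibroblast-like cells with the least mast cell RNA therefore contained transcripts of Lyn, Syk and Plcg1 above the share that Fcer1a, Ms4a2 and Btk had there. Over this whole class, too, 95.9% of genes lay above the marker range.

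**Figure D3:**
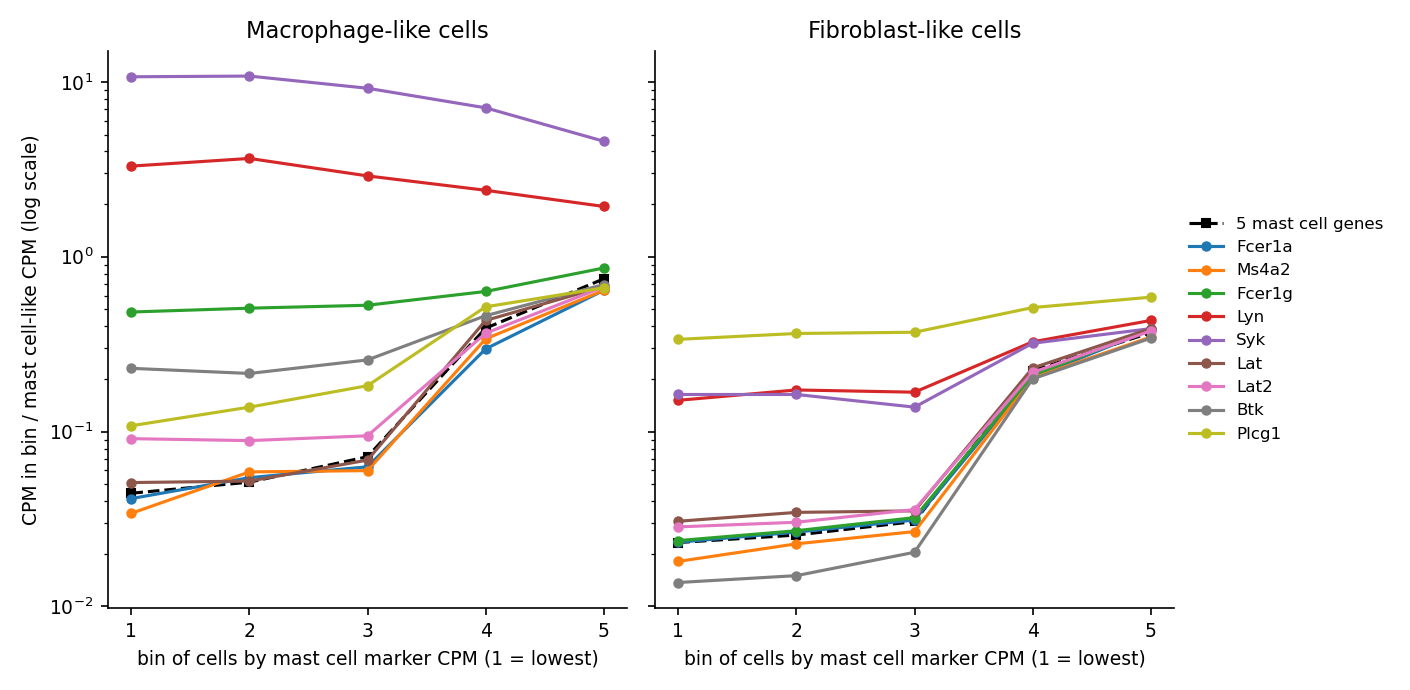
CPM of each gene in 5 bins of cells ranked by mast cell marker CPM, divided by its mast cell-like CPM (log axis), for macrophage-like (left) and fibroblast-like cells (right). The dashed line is the summed level of 5 mast cell genes not used for ranking, and Fcer1a, Ms4a2 and Lat run along it in both panels while Syk and Lyn run opposite to it in macrophage-like cells.

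The tags gave cells sorted by another property than gene expression. Of macrophage-like cells 75.5% carried the tag named Macrophages alone and 21.9% carried several tags, and the mast cell markers were at 6828 CPM in the former and 31987 CPM in the latter. Fcer1a was at 442 CPM with the single tag and at 2068 CPM with several. Syk went the other way, with 424 and 245 CPM, as did Lyn with 758 and 521 CPM. Fcer1g was at 1937 and 2896 CPM and Btk at 90.8 and 185 CPM. Of mast cell-like cells 75.9% carried the tag Cafum alone, and of fibroblast-like cells 49.8% carried Matrigel alone. These fibroblast-like cells had 2886 CPM of mast cell markers, 205 CPM of Fcer1a, 196 CPM of Fcer1g, 45.7 CPM of Lyn and 24.3 CPM of Plcg1. The labels do not say which suspension each tag marks.

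Detection per cell was compared after each cell was thinned to 5500 UMIs, which left out 1269, 551 and 183 shallower cells of the 3 classes. UMIs of all 3 receptor chains were found in 96.0% of mast cell-like cells (95.7–96.2), 34.5% of macrophage-like cells (32.3–36.7) and 22.2% of fibroblast-like cells. Fibroblasts are not known to carry the receptor, and the source of their 22.2% was not tested. That share is no baseline for macrophage-like cells, which held more of the mast cell markers (15289 against 7039.7 CPM). The median depths before thinning were 11660.0, 8209 and 30965 UMIs. The gamma chain was found in 99.9% of macrophage-like and 62.5% of fibroblast-like cells, whereas the beta chain was found in 38.8% and 26.8%. Syk was found in 21.9% of mast cell-like, 74.1% of macrophage-like and 4.74% of fibroblast-like cells (unthinned 41.9%, 82.3% and 22.0%). Lyn was found in 71.1% of mast cell-like and 91.8% of macrophage-like cells (unthinned 88.1% and 92.3%). A median mast cell-like cell had UMIs of 6 of the 9 genes, a macrophage-like cell of 5 and a fibroblast-like cell of 2. Few mast cell-like cells had a UMI of each of the 9 genes (2.06%), and Syk and Plcg1 were found in the fewest (21.9% and 30.5%).

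Within the mast cell-like class the 9 genes varied by less than 2 times between its 5 clusters. All 9 had their lowest value in the cluster led by histone genes, although for Ms4a2 it was level with that of the cluster led by Ctsg (619 CPM, 611–627, and 619.8 CPM, 615–625). The 6 mast cell markers were lowest there too, at 44102 CPM against 48858 to 66989 CPM. The share of all genes that were lowest there, or that varied by less than 2 times, is not given here. Neither is therefore read as a trait of the 9 genes. The histone-led cluster also had the most cell-cycle transcripts (3473 CPM of S phase and 11179.8 CPM of G2/M genes, against 893 to 1603 and 1258 to 3189 CPM in the other 4). The highest level was 1.15 times the lowest for Ms4a2, the steadiest, and 1.81 times for Lyn, the least steady. Fcer1a ran from 2939.7 CPM in the histone-led cluster to 4586 CPM in the cluster led by Slc6a13 and Mrgprb1, which was also highest for Fcer1g (4374 CPM), Lat (157 CPM) and Lat2 (733 CPM). Lyn (327 CPM), Syk (55.8 CPM) and Plcg1 (77.2 CPM) were highest in the cluster led by Gm4847 and Nrgn. Ms4a2 (714 CPM) and Btk (365 CPM) were highest in the cluster led by Ifitm1 and Ctse. The alpha and gamma chains thus peaked in a different cluster from Lyn and Syk, although the clusters came from 1 library and the difference has no replicate check.

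**Figure D4:**
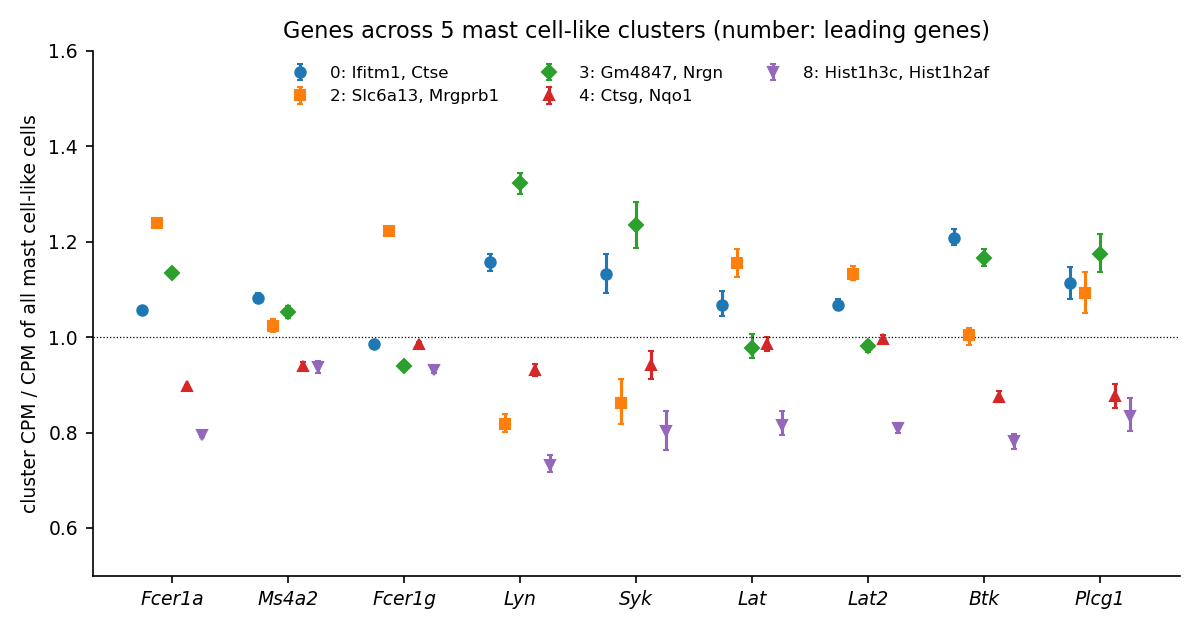
CPM of each gene in the 5 mast cell-like clusters divided by its CPM over the whole class, with 95% Poisson intervals. The histone-led cluster is the lowest point for all 9 genes, level with the Ctsg-led cluster for Ms4a2, and Ms4a2 has the narrowest spread.

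Of the 4 unnamed clusters, 3 carried most mast cell markers, 1 of them with 23 cells. The one led by haemoglobin genes (1636 cells) had 3872 CPM of Fcer1a, 4591 CPM of Fcer1g and 31.7 CPM of Syk. Another of 202 cells, led by Speer4-related genes, Calca and Il7r with a median of 3342 UMIs, had the highest Ms4a2 level of any cluster at 877 CPM (824–932) and a Syk level of 82.3 CPM (66.6–100.5). The T cell-like cluster had 49 cells, 30349 CPM of mast cell markers and 375 CPM of B cell markers beside 601 CPM of T cell markers, and its 58 Lat molecules gave 129.6 CPM (98.4–168), close to the 136 CPM of mast cell-like cells. Lat is also the adaptor of the T cell receptor.

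Around the receptor, a list of 77 other genes of the pathway was read in the same way, and 68 of them had 10 CPM or more in macrophage-like or mast cell-like cells. All 68 lay above the marker range in macrophage-like cells, where 95.9% of all genes did. In macrophage-like cells 19 of the 68 were 4 times or more higher, against 11.9% of all genes, and 0 were so in mast cell-like cells, against 1.27%. The median log2 ratio was 0.23. The 6 mast cell markers were themselves only 3.22 (Tpsb2) to 4.14 (Mcpt4) times higher in mast cell-like cells. Few genes could thus pass 4 times on that side, so the 2 counts do not show which direction held the larger differences.

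A list drawn up as other receptors that use the gamma chain had the highest ratios as a group. Of its genes, 6 of 9 were at 4 times or more, with a median log2 ratio of 3.61. Whether each of them, Pilrb1 among them, pairs with the gamma chain was not checked. Fcgr1, the high-affinity IgG receptor, was at 47.0 CPM in the macrophage-like and 0.289 CPM in the mast cell-like class, the order kept below, and Fcgr4 at 21.1 and 0.150 CPM. The smallest ratios were those of Pilrb1 (18.7 and 9.53 CPM) and Pira2 (18.4 and 11.5 CPM), paired immune receptors. Fcgr2b, Fcgr3 and Fcgr4, like the Pira and Pilrb genes, have near relatives in sequence, so their counts are uncertain. Other signalling adaptors of this kind were lower in macrophage-like cells, with Tyrobp (DAP12, which has an ITAM) at 1636 and 2424 CPM and Hcst (DAP10, which has none) at 60.0 and 111 CPM.

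Among 7 other kinases 3 passed 4 times, with Fgr (12.7 and 0.0714 CPM), a relative of Lyn, at the top, and Csk (70.4 and 104 CPM) was among the lowest. Among 9 adaptors with 10 CPM or more 1 passed, Sh3bp2 (41.0 and 5.73 CPM), followed by Vav1 (59.6 and 31.4 CPM), and Shc1 (24.0 and 26.7 CPM) and Sos1 (25.6 and 35.9 CPM) were lowest. Of 12 lipid and calcium genes 2 passed, Pik3r5 (94.9 and 0.763 CPM), a regulatory subunit of PI3K gamma, and Sphk1 (10.9 CPM, a ratio of 21.9), while Stim1 (87.7 and 199.8 CPM) and the calcium channel Itpr2 (148 and 391 CPM) were lowest. Of 11 effectors 1 passed, Rasgrp1 (18.2 and 1.36 CPM), followed by Nfatc2 (35.5 and 9.68 CPM), with Prkcb (523 and 1071 CPM) and Rac2 (231 and 582 CPM) lowest. Both directions were therefore found among kinases, lipid enzymes and effectors. None of those lower in macrophage-like cells differed by 4 times, which of the 6 mast cell markers Mcpt4 alone did (4.14).

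A list drawn up as genes that restrain the receptor held 9 phosphatases, ligases and docking proteins, and whether each does so was not checked. Of these, 7 had a higher level in macrophage-like than in mast cell-like cells (median log2 ratio 0.20), as 4 of 8 inhibitory receptors had (-0.15), against 40.7% of all genes. For Ptpn11, counted among the 7, the ratio was 1.02 (0.948–1.10), so its interval took in equal levels. Of the first list 3 passed 4 times, led by Dok2 (76.2 and 6.68 CPM) and the ubiquitin ligase Cbl (132 and 18.1 CPM). Dok1 (11.1 and 11.6 CPM) and Inpp5d (306 and 377 CPM), the lipid phosphatase SHIP1, had the smallest ratios. Of the inhibitory receptors 2 passed, Siglece (14.9 and 0.0564 CPM) and Fcgr2b (259 and 40.0 CPM), and Cd200r1 (57.3 and 112 CPM) and Cd300lf (16.8 and 43.9 CPM) were lowest. Of 4 genes listed for their part in lymphocytes only Blnk, an adaptor that links Syk to Btk in B cells, had 10 CPM, with 328 and 36.3 CPM.

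**Figure D5:**
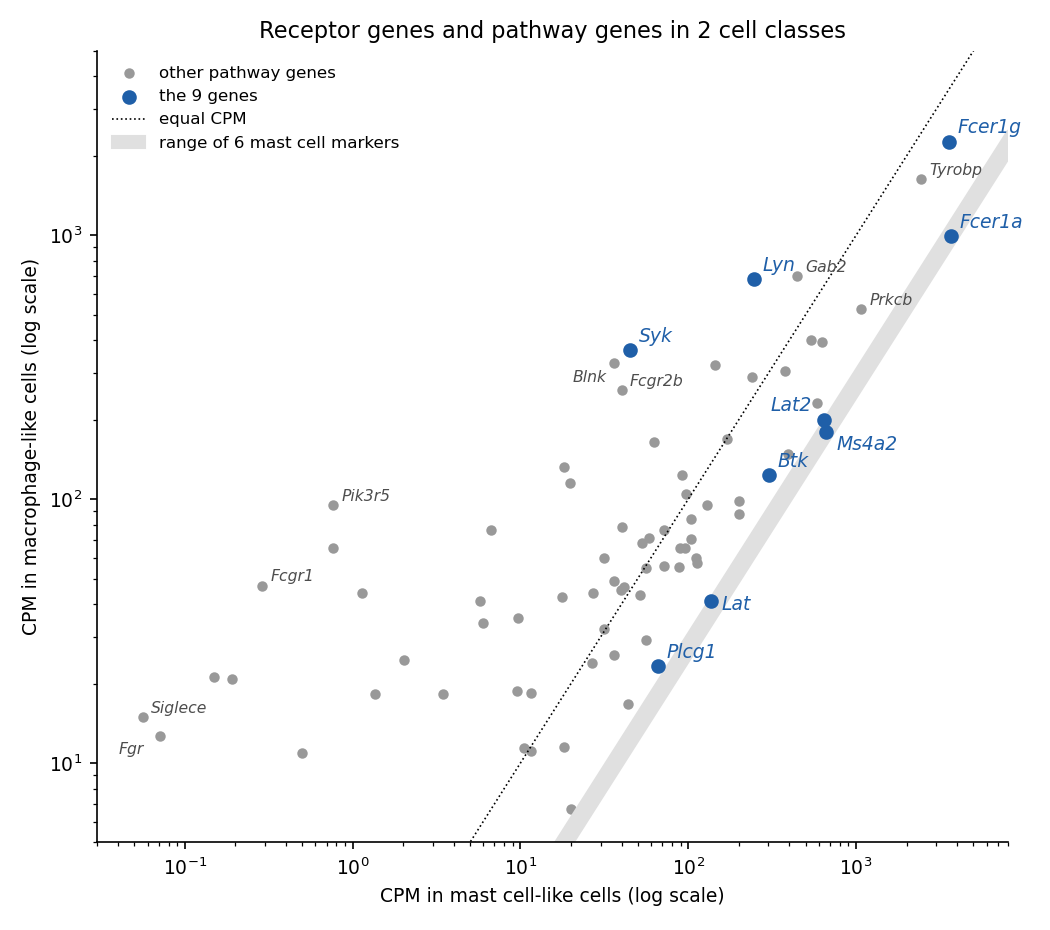
CPM in the macrophage-like class (vertical) against CPM in the mast cell-like class (horizontal) on log axes, for the 9 genes (blue) and the other pathway genes with 10 CPM or more in either class (grey). Fcer1a, Ms4a2, Lat and Lat2 lie in the grey band of 6 mast cell markers, and Lyn and Syk lie above the dotted line of equal CPM.

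Over 10 clusters of 100 or more cells, the 9 genes were also compared by Pearson correlation of log2(CPM + 1), as a description, since the clusters share 1 library. Lat and Lat2 were each other's nearest gene among 11033 (r = 0.998), and both were followed by the mast cell protease Cpa3. Fcer1a was nearest to Atp8b5 (0.996), Tmem273 (0.994) and Gata1 (0.992), and Ms4a2 to Ddc (0.990), Cma2 (0.989) and Rgs18 (0.988). Fcer1g was nearest to Tyrobp (0.995), which encodes the other ITAM adaptor, then Srgn and Atp6v0b. Lyn was nearest to Plek and Arhgef6, Syk to Themis2, Tle4 and Rel, Btk to Stk4, Mindy1 and Cbfa2t3, and Plcg1 less closely to Prkar1a (0.967), Vhl and Adi1. Between members, Fcer1a and Ms4a2 had r = 0.99 and Lyn and Syk r = 0.96, whereas Fcer1a and Syk had r = 0.24.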

How the data were processed

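The deposited matrix holds counts, not normalized, in which a unique molecular identifier (UMI) stands for 1 captured RNA molecule. Its header names Cell Ranger 7.0.0, and mm10 is named in the submitters' processing notes. The use of strand and intronic reads is not given in the sources used here. Of 34813 barcodes, 33964 had at least 500 genes, 1000 UMIs and at most 10% mitochondrial UMIs. Scrublet (scanpy 1.11.5) called 5454 doublets (15.7%), 5401 were removed, and 28563 cells remained (median 12359 UMIs, range 1001–243243). Scrublet's threshold caught 51.2% of simulated doublets, so doublets remain. Tag counts were kept out of gene totals.

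Cells were clustered on 2000 variable genes and 30 principal components (Leiden, igraph 0.11.9, resolution 0.5) without the 254 listed genes, mitochondrial and ribosomal protein genes. Clusters were named where at least 3 and over 50% of a list's markers had 50 CPM and 4 times their lowest CPM, unless another list led. A cluster was also left unnamed if 3 times its median UMIs was below the median of all cells and none of its 10 leading genes was on its list. No deposited annotation was used, and names rest on these markers. A tag was called at 2 times its background (Cafum 1.4). CPM intervals are 95% Poisson and shares Clopper-Pearson, and PCR error is not in them. The computation was tested on simulated data.

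Members and lists were chosen with earlier results of these data known. Named genes are the 9 members, the 2 largest and 2 smallest ratios of each list, and the 3 most correlated genes per member. A few genes that this rule names are not reported here. Alternatives are in the closing section.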

Additional observations from a re-analysis of the deposited data

How the results depend on the processing

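The count of genes above the marker range in fibroblast-like cells was 3 under every alternative run. In macrophage-like cells it was 5, or 6 with Lat2 added, when doublets were kept, in cells with 1 tag alone and with mean CPM per cell, where 96.8%, 97.5% and 96.7% of all genes were above it. The genes at 4 times or more in mast cell-like over macrophage-like cells numbered 0, but 5 in cells with 1 tag alone (6.73% of all genes), 4 with mean CPM per cell (406 of 8829 genes), and 4 with a call at 3 times (5.21%), which was added after the values were seen. The cause was not tested. The share of mast cell-like cells with all 3 chains was 96.0%, and 96.3% with doublets kept, 98.6% without thinning, 79.1% thinned to 2500 UMIs and 84.3% when 2 UMIs of each chain were required, so it depends on depth. Of 126 alternative log2 ratios of single genes 0 changed sign, 55 stayed within the counting interval and 71 moved beyond it, the furthest by 1.30 (Btk in fibroblast-like cells with 1 tag alone, -4.41). In macrophage-like cells the log2 ratio of Fcer1a was -1.90, and -3.06 with 1 tag alone and -1.19 with doublets kept, and that of Ms4a2 was -1.87, -3.11 and -1.01. Adding the haemoglobin-led cluster to the mast cell-like class, also chosen after seeing the data, left both counts at 5 and 3. No paired analysis was possible because there is 1 gene expression library.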

Other observations

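The 293 barcodes with under 1000 UMIs, which were left out of all classes, held 220974 gene UMIs. Fcer1a was at 1507 CPM in them, Ms4a2 at 303, Fcer1g at 1575, Lyn at 326 and Syk at 109 CPM. Relative to mast cell-like cells these levels were 0.407, 0.459, 0.440, 1.32 and 2.40.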
